A study of Homo sapiens with 4 samples.

Results

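Small nucleolar RNPs (snoRNPs) are RNA-protein particles that modify ribosomal RNA and other stable RNAs, with the small nucleolar RNA (snoRNA) acting as the guide. Box C/D particles carry FBL, the methyltransferase, together with NOP56, NOP58 and NHP2L1 (also called SNU13), and add methyl groups to the ribose. Box H/ACA particles carry DKC1 (dyskerin), the pseudouridine synthase, together with NOP10, NHP2 and GAR1, and convert uridine to pseudouridine. NAF1 takes the place of GAR1 during assembly of H/ACA particles, and NOLC1 (Nopp140) is a nucleolar and Cajal body protein that binds both kinds of particle. Their genes are among those often studied as targets of MYC, a transcription factor that drives ribosome production.

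The expression of these 10 genes was examined in SK-MEL-28, an established human melanoma cell line. The genes were taken by name, and all 10 were found among the 25268 gene symbols of the RNA-Seq table. The 4 libraries came from 2 lines made by stable lentiviral transduction and selection: a vector line with an empty vector, and a MYC-inducible line with a MYC gene behind a doxycycline (Dox)-inducible promoter. Each line was left untreated or treated with Dox for 54 h. There was 1 library per condition, so no difference has a replicate check, no p-value is given, and a difference between conditions cannot be told apart from one between single cultures. The values are FPKM, that is, the fragments of a gene divided by its transcript length in kilobases and scaled to 1000000 mapped fragments of the library. They give shares of a library averaged over all cells, so more RNA per cell and more expressing cells cannot be told apart, nor can a change in total RNA be seen.

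The approximate depth was 34900000 to 41900000 fragments per library, estimated from the steps between very low values. Changes are differences of log2(FPKM + 0.1), and a gene is said to have risen or fallen only where it changed at least 1.5-fold. The comparison set is the 11147 genes averaging 1 FPKM or more over the libraries, a filter that all 10 genes passed. MYC had 58.3 and 54.8 FPKM in untreated and treated vector cells, and 76.5 and 87.1 FPKM in untreated and treated MYC-inducible cells, a log2 change of 0.19 in the latter. MYC itself was thus below the 1.5-fold threshold on Dox in this table, and its level in untreated MYC-inducible cells was nearer to that in treated MYC-inducible cells than to those in vector cells. The groups are therefore named by line and treatment, as labelled, and not by the level of MYC. The paper, by contrast, reports that Dox raised MYC mRNA in MYC-inducible cells, as measured by RT-PCR. It also reports a higher activity of a reporter for MYC in these cells after Dox. How fully the FPKM of MYC count reads from the introduced MYC gene was not tested. Each of the 6 melanocyte markers examined was expressed, and their summed level was 7743 to 7891 FPKM in the other 3 libraries and 4400 FPKM in treated MYC-inducible cells, where PMEL, MLANA and TYR fell. Of 5 markers of other cell types, PTPRC, PECAM1, COL1A1 and KRT14 were below 1 FPKM in every library, 2 of them (PTPRC and PECAM1) with zeros. EPCAM, an epithelial marker, was between 0.658 and 0.769 FPKM in the other 3 libraries and 2.71 FPKM in treated MYC-inducible cells. The part of either marker list in the changes below was not tested.

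The promoters of the snoRNP protein genes were examined first, because MYC with its partner MAX binds the palindromic E-box CACGTG. RefSeq promoter windows of 300 bases, from 250 bases before to 50 bases after an annotated start, were matched for 6 of the 10 genes (7 windows, with 2 for GAR1). NOP58, NHP2L1, NOLC1 and NAF1 had none. The windows come from build GRCh38 and were placed on GRCh37, the build of the study, by exact match. CACGTG, which reads the same on both strands, lay in windows of FBL, NOP10 and GAR1 and in 7.26% of all 35116 windows. NOP10 held it at 2 places, which 0.664% of all windows did. The windows with the hexamer are printed here with CACGTG in capitals, together with that of NOP56, which lacks it and whose gene had the largest rise of the 6.
FBL, chr19:40336970-40337269, minus strand: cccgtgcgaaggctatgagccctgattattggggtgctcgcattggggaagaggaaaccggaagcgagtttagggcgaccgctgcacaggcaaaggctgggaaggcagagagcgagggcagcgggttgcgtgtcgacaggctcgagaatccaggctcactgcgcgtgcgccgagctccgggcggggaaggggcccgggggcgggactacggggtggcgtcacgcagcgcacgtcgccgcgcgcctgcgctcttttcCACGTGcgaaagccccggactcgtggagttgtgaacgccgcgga
NOP10, chr15:34635288-34635587, minus strand: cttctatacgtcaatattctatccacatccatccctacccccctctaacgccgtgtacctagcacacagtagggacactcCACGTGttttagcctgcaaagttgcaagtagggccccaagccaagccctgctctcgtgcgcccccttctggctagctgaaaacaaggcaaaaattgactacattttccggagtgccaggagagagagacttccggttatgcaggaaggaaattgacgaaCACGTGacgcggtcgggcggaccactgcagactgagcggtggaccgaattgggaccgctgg
GAR1, second window, chr4:110736668-110736967, plus strand: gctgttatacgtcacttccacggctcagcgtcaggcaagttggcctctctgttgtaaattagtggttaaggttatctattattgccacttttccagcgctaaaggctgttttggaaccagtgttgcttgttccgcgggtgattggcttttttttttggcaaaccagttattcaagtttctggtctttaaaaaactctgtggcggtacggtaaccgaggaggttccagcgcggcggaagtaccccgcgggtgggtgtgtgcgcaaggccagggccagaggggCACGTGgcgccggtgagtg
NOP56, chr20:2633028-2633327, plus strand: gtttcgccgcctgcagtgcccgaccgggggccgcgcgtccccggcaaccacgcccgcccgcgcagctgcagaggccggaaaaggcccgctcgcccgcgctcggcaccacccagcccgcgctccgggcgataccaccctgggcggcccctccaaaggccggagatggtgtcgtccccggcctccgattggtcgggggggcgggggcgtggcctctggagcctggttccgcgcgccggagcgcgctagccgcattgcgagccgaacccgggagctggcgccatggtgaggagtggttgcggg

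Relative to the start, the first base of the hexamer was 6 bases downstream in FBL and 31 bases downstream in the second GAR1 window. In NOP10 it was at -170 and at -11. A match of letters is not evidence of binding, and its absence from a window says nothing about sites elsewhere in the gene. The genes with a match had log2 changes in the MYC-inducible line of 0.81 for FBL, 0.75 for GAR1 and 0.23 for NOP10, and those without had 0.96 for NOP56, 0.93 for DKC1 and 0.56 for NHP2, so the 2 sets overlap.

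In MYC-inducible cells treated with Dox, 8 of the 10 genes rose, against 5.90% of the 11147 genes. The genes were chosen with earlier results of these data known, so this contrast is not independent of the data. Of the 10, 0 fell, against 8.85% of all genes, a share too low for this count to set the 10 genes apart. On treatment, the 10 genes had a median log2 change of 0.80 in MYC-inducible cells and of 0.01 in vector cells, beside -0.03 and 0.01 for all genes. Each of the 10 was above its untreated level in the MYC-inducible line, as were 5220 of the 11147 genes. The log2 changes of the 10 ran from 0.23 for NOP10 to 1.03 for NOLC1. In the vector line 0 of the 10 rose and 0 fell, against 0.709% and 0.440% of all genes, and their changes lay between -0.11 and 0.20. These shares are too low for either 0 to set the 10 genes apart. At a 2-fold threshold, NOLC1 alone rose, against 1.05% of all genes.

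**Figure D1:**
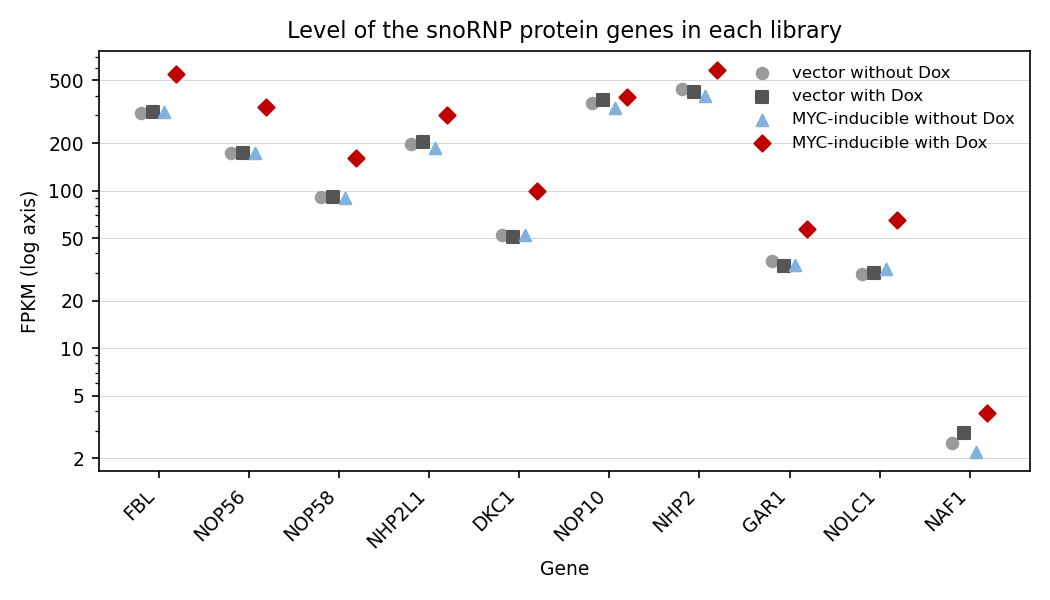
FPKM on a log axis for each of the 10 genes, with 1 point per library and no error bars, since there is 1 library per condition. The red diamonds of treated MYC-inducible cells lie above the other 3 points for all 10 genes, by as little as 1.04 times for NOP10 and as much as 2.04 times for NOLC1.

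All of the box C/D core genes rose in treated MYC-inducible cells. FBL, on chromosome 19 of GRCh37 from 40325098 to 40337019, had 311 and 316 FPKM in untreated and treated vector cells, and 314 and 550 FPKM in untreated and treated MYC-inducible cells. The first 3 values lay within 1.02 times of each other, and the fourth was 1.74 times the highest of them. The log2 change in the MYC-inducible line was 0.81, with an approximate counting error of 0.0151, which covers the sampling of fragments only. NOP56, a scaffold protein of the particle, lies on chromosome 20 from 2633239 to 2639039. It had 174, 172, 173 and 337 FPKM in the same order, and a log2 change of 0.96 (counting error 0.0152). The other 3 libraries were within 1.01 times of each other. NOP56 had the largest change of the box C/D core, and 1.18% of all genes had a higher one, falls not counted.

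NOP58, the partner of NOP56 and its relative in sequence, lies on chromosome 2 from 203130459 to 203168384. It had 91.1, 90.6, 89.2 and 161 FPKM, a log2 change of 0.85 (counting error 0.0211). The ratio of NOP56 to NOP58 was 2.10 in treated MYC-inducible cells and 1.90 to 1.95 in the other libraries. NHP2L1 binds the k-turn of box C/D snoRNAs and also the U4 snRNA of the spliceosome, and lies on chromosome 22 from 42069937 to 42086508. It had 197, 203, 187 and 300 FPKM, and its log2 change of 0.69 (counting error 0.0174) was the smallest of the box C/D core. Its untreated MYC-inducible library was the lowest of the 4, so that against treated vector cells the log2 difference was 0.56, below 1.5-fold.

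The box H/ACA core genes were less uniform: DKC1 and GAR1 rose, and NHP2 and NOP10 stayed below 1.5-fold. DKC1, whose mutation causes X-linked dyskeratosis congenita, lies on chromosome X from 153991017 to 154005964. It had 52.1 and 51.0 FPKM in untreated and treated vector cells, 52.4 FPKM in untreated MYC-inducible cells and 99.8 FPKM after Dox, a log2 change of 0.93 (counting error 0.0245). GAR1, on chromosome 4 from 110736666 to 110745896, had 35.6, 33.0, 33.8 and 57.0 FPKM in that order, a log2 change of 0.75 (counting error 0.0487). Its log2 change in the vector line, -0.11, was the lowest of the 10. For both genes the treated MYC-inducible library stood apart, at 1.91 times the highest of the others for DKC1 and 1.60 times for GAR1.

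NHP2, which like NHP2L1 belongs to the L7Ae family of RNA-binding proteins, lies on chromosome 5 from 177576464 to 177580895. It was the most abundant of the 10 transcripts, with 438, 424, 397 and 583 FPKM, and its log2 change of 0.56 (counting error 0.0167) corresponded to 1.47-fold, just under the threshold. NOP10, a small protein that contacts DKC1, lies on chromosome 15 from 34631360 to 34635381. It had 359, 377, 335 and 392 FPKM, a log2 change of 0.23 (counting error 0.0237) or 1.17-fold. The other 3 libraries of NOP10 differed from each other by 1.12 times, and the treated MYC-inducible library was 1.04 times the highest of them. Of all genes, 23.6% had a higher log2 change than NOP10 in the MYC-inducible line, compared with at most 6.79% for each of the other 9. Genes that fell do not count toward these shares.

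Both factors outside the mature core rose. NOLC1, on chromosome 10 from 103911933 to 103923628, had 29.7, 30.2, 32.0 and 65.4 FPKM, a log2 change of 1.03 (counting error 0.0252). A higher log2 change, falls not counted, was seen for 0.978% of all genes. NAF1, on chromosome 4 from 164031225 to 164088042, was by far the lowest of the 10, with 2.50, 2.88, 2.19 and 3.88 FPKM. Its log2 change was 0.80 with a counting error of 0.139, since its smallest library held approximately 172 fragments. The other 3 libraries of NAF1 differed by 1.32 times, the widest of the 10, and its change in the vector line was 0.20. Against treated vector cells its log2 difference was 0.42, below 1.5-fold.

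**Figure D2:**
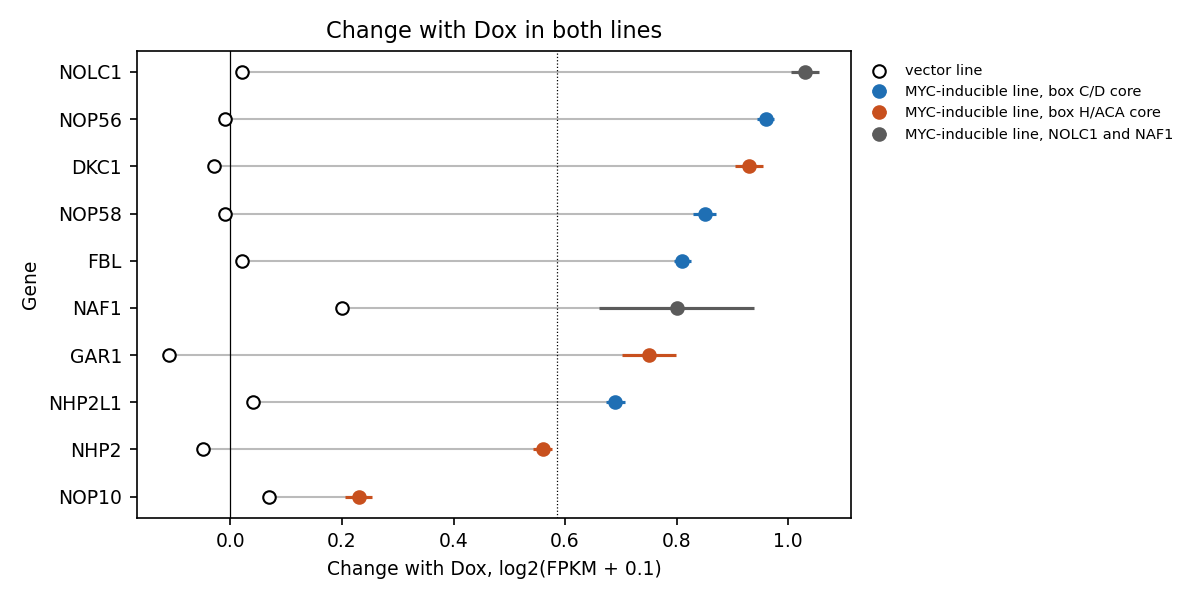
Change with Dox in log2(FPKM + 0.1) for the vector line (open circles) and the MYC-inducible line (filled circles, coloured by particle), with the dotted line at 1.5-fold. Bars are approximate counting errors of single libraries and do not include differences between cultures. NOP10 (0.23) and NHP2 (0.56) lie left of the dotted line, and the vector line values lie between -0.11 and 0.20.

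Other references gave the following counts. When the change of the vector line was subtracted, 9 of the 10 genes were at least 1.5-fold higher, against 5.85% of all genes, since NHP2 had a difference of 0.60. NOP10 had 0.16. With both lines treated, 6 of the 10 were at least 1.5-fold higher in MYC-inducible than in vector cells, against 6.50% of all genes. NHP2L1, NHP2, NAF1 and NOP10 were below this, at log2 differences of 0.56, 0.46, 0.42 and 0.06. These comparisons use the same treated MYC-inducible library. Between the untreated lines 0 of the 10 differed by 1.5-fold upward, against 0.592% of all genes, and 0 downward, against 32 of the 11147 genes. These shares are too low for either 0 to set the 10 genes apart. The untreated differences lay between -0.18 for NAF1 and 0.11 for NOLC1.

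**Figure D3:**
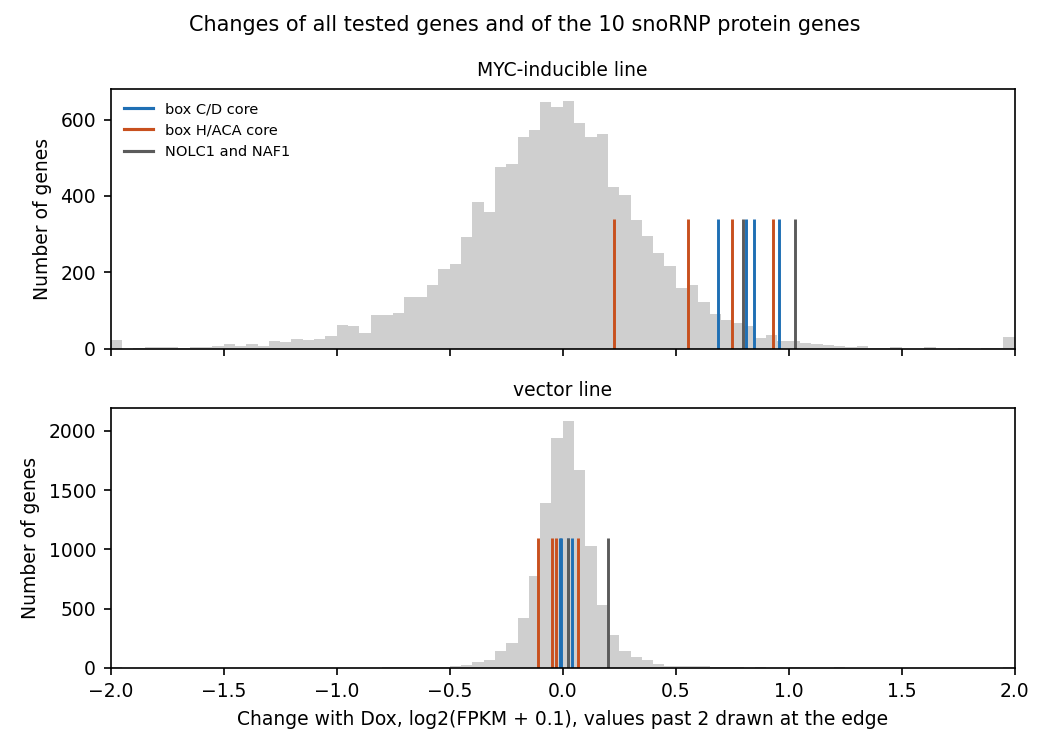
Histograms of the Dox effect, in log2(FPKM + 0.1), on the 11147 genes of MYC-inducible (top) and vector (bottom) cells, with the 10 genes as coloured lines whose height has no meaning. Of the 10, 8 lie among the 5.90% of genes that rose in the MYC-inducible line, while in the vector line they lie between -0.11 and 0.20. The robust SD over all genes was 0.36 in the upper panel and 0.11 in the lower.

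The levels of the 10 transcripts can be set side by side because FPKM is per length, though the lengths used for the FPKM are not known here. NHP2 and NOP10, the highest, have the shortest annotated transcripts, 780 and 507 bases. The part of length in the order was not tested. In the vector libraries and the untreated MYC-inducible library the order was the same in all 3: NHP2, NOP10, FBL, NHP2L1, NOP56, NOP58, DKC1, GAR1, NOLC1 and NAF1, from highest to lowest. In none of the 9 neighbouring pairs did the ranges over these 3 libraries overlap, although GAR1 and NOLC1 were close, with 33.0 FPKM as the lowest value of GAR1 and 32.0 FPKM as the highest of NOLC1. In treated MYC-inducible cells, FBL passed NOP10, NOP56 passed NHP2L1 and NOLC1 passed GAR1. These changes of place have no replicate check.

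Within both particles the transcripts moved by unequal amounts. The ratio of NOP10 to DKC1 was 6.89 and 7.39 in untreated and treated vector cells, 6.40 in untreated MYC-inducible cells and 3.92 after Dox. For NHP2 to DKC1 the ratios were 8.40, 8.32, 7.57 and 5.84. The ratio of DKC1 to GAR1 went the other way, with 1.46, 1.54, 1.55 and 1.75. In the box C/D core, FBL was at 3.41, 3.49, 3.52 and 3.42 times NOP58 in the same order, while NHP2L1 to NOP58 had 2.17, 2.24, 2.09 and 1.87 and FBL to NOP56 had 1.79, 1.83, 1.81 and 1.63. The ratio of the highest to the lowest core transcript was 3.52 before and 3.42 after Dox for box C/D, and 11.7 and 10.2 for H/ACA, in MYC-inducible cells. The summed level of the box C/D core was 763 FPKM in untreated MYC-inducible cells and 1348 FPKM after Dox, 1.77 times as high, and that of the H/ACA core was 818 and 1132 FPKM, 1.38 times as high. Their ratio, C/D to H/ACA, was 0.874 and 0.884 in untreated and treated vector cells, 0.933 in untreated MYC-inducible cells and 1.19 after Dox. Since NHP2 and NOP10 are the most abundant H/ACA transcripts, they weigh most in the H/ACA sum, to which the same limit of length applies.

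The size of the change followed transcript length among the 10 genes. The shortest annotated transcript, NOP10 with 507 bases, had the smallest change, NHP2 with 780 bases the next smallest, and the longest, NOLC1 with 3723 bases, the largest. Spearman's rho between length and change in the MYC-inducible line was 0.90 over the 10 genes and 0.81 over the 8 genes left without NOP10 and NOLC1. Over 10828 tested genes with an annotated length it was -0.05, and over the 19 partner genes described next it was 0.01. The level in untreated MYC-inducible cells was also ordered against length among the 10, with a rho of -0.65, so length, level and change moved together. These are descriptions across genes, which are not independent replicates. The part of transcript length in the result was not tested.

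**Figure D4:**
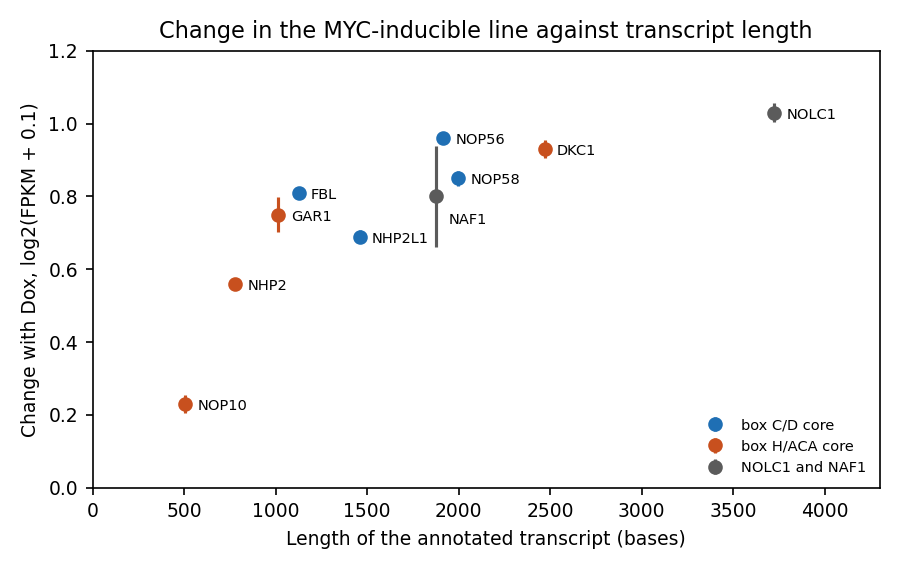
Change of MYC-inducible cells on Dox, in log2(FPKM + 0.1), against the length in bases of the annotated transcript for the 10 genes, coloured by particle. Bars are approximate counting errors. The points run from NOP10 (507 bases, 0.23) to NOLC1 (3723 bases, 1.03).

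Partner genes of the particles were examined as lists. Beside each count that follows, the share of all genes that rose in the MYC-inducible line is 5.90%. Of 9 assembly factors, RUVBL1, NUFIP1 and C12orf45 (NOPCHAP1) rose, and the median log2 change was 0.46. RUVBL1, an ATPase of the R2TP complex, had 43.4 FPKM in untreated MYC-inducible cells and 76.7 FPKM after Dox, a log2 change of 0.82 beside 0.09 in the vector line. Its partner RUVBL2 had 0.58, which was 1.49-fold. PIH1D1 and RPAP3, the other R2TP subunits, had 0.13 and 0.12. NUFIP1, which brings R2TP to box C/D proteins, had 0.66, and SHQ1, the chaperone of DKC1, had 0.46.

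Of 4 proteins of the U3 snoRNP, the box C/D particle needed for cleavage of the ribosomal RNA precursor, RRP9 and IMP4 rose and the median was 0.58. RRP9 went from 35.3 to 64.9 FPKM, a log2 change of 0.88 beside 0.16 in the vector line. IMP4 had 0.73, IMP3 0.43 and MPHOSPH10 0.40. Of 6 nucleolar and Cajal body partners, NCL, TCOF1 and NPM1 rose and the median was 0.49. NCL (nucleolin) went from 468 to 837 FPKM, a log2 change of 0.84, and TCOF1 (treacle), which resembles NOLC1 in its repeats, had 0.69. NPM1 lay at the threshold, with 0.59, and the Cajal body and snoRNA export or capping proteins COIL, TGS1 and PHAX had 0.40, 0.19 and 0.16. Together, 8 of these 19 partners rose and 0 fell in the MYC-inducible line, against 5.90% and 8.85% of all genes. The latter share is too low for the 0 to set the 19 apart. These lists, like the 10 genes, were chosen with earlier results of these data known. In the vector line 0 of the 19 rose and 0 fell, against 0.709% and 0.440%, shares again too low to set them apart. In the MYC-inducible line the median log2 change of the 19, 0.46, was below the 0.80 of the 10 snoRNP protein genes. It was above the -0.03 of all genes. The difference between the lists was not tested.

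**Figure D5:**
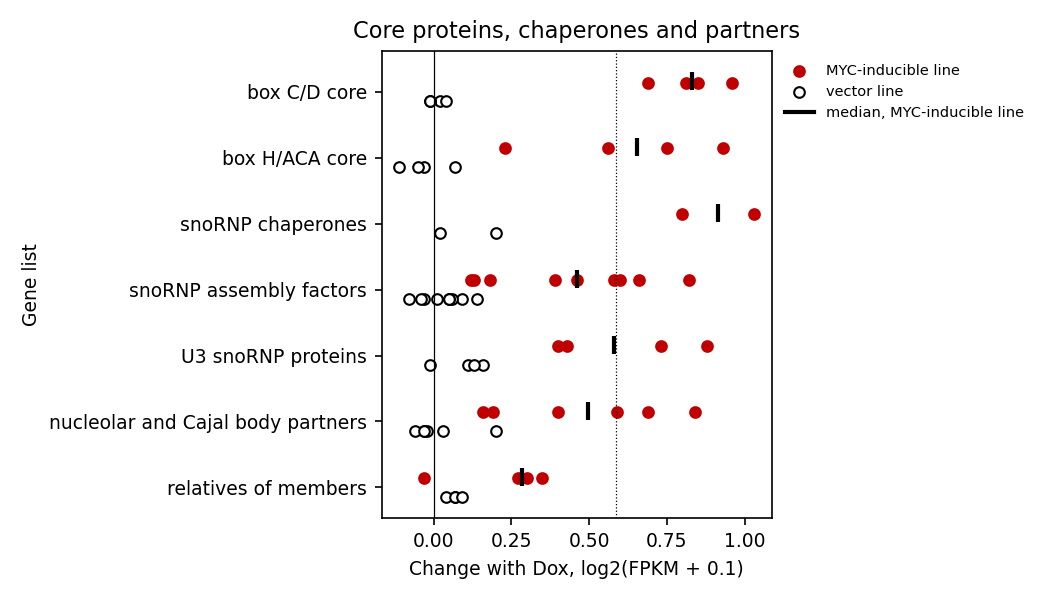
Change with Dox in log2(FPKM + 0.1) for the genes of 7 lists, with the MYC-inducible line in red, the vector line as open circles and a black bar at the median of the MYC-inducible line. The dotted line marks 1.5-fold. The box C/D core lies wholly right of it (median 0.83), the H/ACA core on both sides (median 0.65), and the relatives in sequence left of it (median 0.29).

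The H/ACA proteins DKC1, NOP10, NHP2 and GAR1 are also part of telomerase. TERT, the catalytic subunit, had 0.289 and 0.295 FPKM in untreated and treated vector cells, 0.264 FPKM in untreated MYC-inducible cells and 1.02 FPKM after Dox, from approximately 44.7 and 161 fragments in the last 2. Its log2 change was 1.62 with a counting error of 0.244, although its mean is below the filter of 1 FPKM. At such low values the added 0.1 FPKM makes the change, 3.06-fold, smaller than that of the FPKM themselves. The counting error does not take it into account. WRAP53, which brings telomerase to Cajal bodies, and PARN, which trims the telomerase RNA, had 0.16 and 0.11. Over the 6 genes of this list past the filter, the H/ACA core included, the median was 0.39 and 2 rose (DKC1 and GAR1).

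Relatives of the core proteins outside these particles changed less than 1.5-fold. So did most genes, since 5.90% of all genes rose and 8.85% fell in the MYC-inducible line. Over the 4 relatives past the filter the median log2 change was 0.29, beside -0.03 for all genes, and 3 of the 4 were above 0. PRPF31, which shares the Nop domain with NOP56 and NOP58 and binds the same U4 particle as NHP2L1, had 65.9 FPKM in untreated MYC-inducible cells and 81.1 FPKM after Dox, a log2 change of 0.30. The L7Ae family members RPL7A, RPP38 and SECISBP2 had 0.27, 0.35 and -0.03, compared with 0.69 for NHP2L1 and 0.56 for NHP2. FBLL1, a close relative of FBL, was near 1 FPKM in all libraries, from 0.744 to 1.08 FPKM, and below the filter.

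The 5 genes whose pattern over the 4 libraries was most like the median of the 10 were SNHG3, ACSS1, CDC25A, GNL3 and PNPT1, out of 7465 genes that averaged 5 FPKM or more. Likeness was the root mean square distance of log2 values centred on each gene's mean, and it was 0.016 for SNHG3 and 0.022 for PNPT1. SNHG3 had 17.1, 16.6, 16.1 and 28.6 FPKM in untreated and treated vector and untreated and treated MYC-inducible cells, a log2 change of 0.82 in the latter line. Of the 10 themselves, NOP58 and FBL were nearest to their median, at 0.024 and 0.025, and NOP10 was farthest, at 0.282. The distances rest on 4 libraries only.

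Some of the 10 genes share sequence with other annotated features, and it is not stated whether the values use the strand of the reads. NOP56, NOLC1 and NHP2 have annotated pseudogene copies (3, 1 and 2), with which reads could have been split. NHP2L1, NHP2 and NOP58 overlap exons of genes on the other strand (C22orf46P, RMND5B and an unnamed gene). On the same strand, NOP56 shares exon bases with MIR1292, SNORA51, SNORD110 and SNORD86. NOP58 does so with SNORD70, and DKC1 with SNORA36A and SNORA56. FBL, NOP10, GAR1 and NAF1 have no pseudogene copy and no such overlap on either strand by these criteria.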

How the data were processed

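RNA-Seq was performed by the authors on 4 libraries, 1 per condition, as named by the labels. The values deposited by the authors are FPKM, given by gene symbol. TopHat2 2.0.14, Cufflinks and hg19 (GRCh37) stand in the submitters' processing notes, and the annotation and strand setting are not given in the sources used here. Of 27032 rows, 1 had no gene name and was dropped, and 609 symbols with several rows were summed, none of them among the 10 genes, which left 25268 symbols. FPKM are not counts and there were no replicates, so no model was fitted and no test made. Changes were differences of log2(FPKM + 0.1) for the 11147 genes averaging 1 FPKM or more. The calculation was tested on simulated data with planted 2-fold changes, which does not test calls near the 1.5-fold threshold. Depth was estimated from 164 genes with 1 annotated transcript (quartiles 34300000 and 40700000 fragments for the first library), and counting errors follow from it and cover fragment sampling only. Positions and lengths came from GENCODE release 44 on GRCh37, which matched 22586 symbols (older names through RefSeq synonyms). All 10 genes were named. Partner genes were named where they changed 1.5-fold, were the extremes of their list or share a domain or complex with one of the 10, and the 5 most like genes by distance. The genes and lists were chosen with earlier results of these data known. Alternatives were other pseudocounts, filters, scalings, thresholds and references. Python 3.11.15, numpy 2.4.6, pandas 2.3.3, scipy 1.17.1 and matplotlib 3.10.9 were used.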

Additional observations from a re-analysis of the deposited data

Results flagged for a closer look

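For 5 of the 10 genes the change with Dox had opposite signs in the 2 lines, each from 1 library per condition, and the difference was not tested. The change in MYC-inducible cells less that in vector cells, on the log2(FPKM + 0.1) scale, was 0.97 for NOP56, 0.96 for DKC1, 0.86 for NOP58, 0.86 for GAR1 and 0.60 for NHP2. The vector line part of these differences was small, from -0.11 for GAR1 to -0.01 for NOP56 and NOP58. The robust SD over all genes in the vector line was 0.11, so the signs of these small changes do not set the 10 genes apart. In that line 6041 of the 11147 genes had a change above 0, and 5 of the 10 did. The share of all genes with opposite signs was not counted.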

How the results depend on the processing

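No paired analysis was possible because there was only 1 library in each condition. The median change of the 10 genes in the MYC-inducible line, 0.80, lay between 0.76 and 0.83 under the other pseudocounts, scalings, row handling, reference and mean, and between 0.80 and 0.81 with 1 gene left out. The vector line median of 0.01 lay between -0.01 and 0.01, so it has no direction. Of 130 recalculated values for single genes, 126 moved by less than the robust SD of the vector line, and none changed direction among those that had risen. The others were NAF1, at 0.61 with a pseudocount of 1 and 0.42 against treated vector cells, and against the same reference NHP2L1 at 0.56 and NOP10 at 0.06. At 2-fold, 1 of the 10 genes rose in place of 8, and over all genes 117 rose and 228 fell in the MYC-inducible line and 28 and 15 in the vector line. Without a filter, 1138 rose and 1748 fell in the MYC-inducible line and 529 and 387 in the vector line. With a mean of at least 5 FPKM, which leaves NAF1 out, 436 and 549 did in the MYC-inducible line and 25 and 8 in the vector line. With a pseudocount of 1, 43 rose and 22 fell in the vector line. Filters and the threshold shift these counts by construction. For shifts with the pseudocount or the reference library the cause was not tested. Depth limits NAF1 most, with a counting error of 0.139.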

Other observations

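The introns of NOP56, NOP58 and DKC1 host snoRNAs of the same 2 families that the encoded proteins bind, and 8 of the 10 snoRNAs listed for these genes lay inside a host in the annotation (SNORD86, SNORD110, SNORA51, SNORD11, SNORD11B, SNORD70, SNORA36A and SNORA56). For the others, SNORD56 and SNORD57, no host was matched, which can also mean that the name was not found in the annotation. Of the 10, 9 were listed at 0 FPKM in all 4 libraries. SNORA51 was listed at 6.90 FPKM in untreated vector cells and at 0 in the other libraries. Its value of 6.90 comes from 1 library and has no replicate check. Whether these libraries capture small RNAs was not tested, so a 0 is not evidence that a snoRNA was absent.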
